A study of Mus musculus with 12 samples.

Results

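Polycomb repressive complex 2 (PRC2) is the enzyme complex that methylates lysine 27 of histone H3, and the genes of its subunits were followed here through osteogenic culture of MC3T3 sc4 cells, a subclone of a mouse calvarial pre-osteoblast line. The genes were taken by symbol from a table of gene counts: the catalytic subunits Ezh2 and Ezh1, the core subunits Eed, Suz12, Rbbp4 and Rbbp7, and the accessory subunits Jarid2, Aebp2, Mtf2 and Phf19. They are 10 of the 23358 rows of the table, and all 10 were among the 12056 rows tested, which had at least 1 CPM (counts scaled to the library total) in at least 2 libraries. Phf19 was the least abundant and reached 1 CPM in 8 libraries, the 6 of day 1 and the 2 of day 6 without BMP2.

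Cells at passage 12, with the strain given as C57BL/6, were kept for 1 or 6 days in osteogenic medium with ascorbic acid and β-glycerol phosphate, which every group received, the vehicle group included. On each day the groups were vehicle, bone morphogenetic protein 2 (BMP2) at 10 ng/ml, BMP2 at 50 ng/ml, 5 µM GSK126, and 5 µM GSK126 with BMP2 at 10 or at 50 ng/ml, and medium and agents were renewed once before day 6. GSK126 inhibits the methyltransferase EZH2, and BMP2 is a growth factor that drives osteoblast differentiation. Each of the 12 groups had 1 library of total RNA from a single cell line, so a difference between any pair of groups has no replicate check. Whether the libraries are from separate cultures is not given in the labels, so p-values speak only of the spread among these 12 libraries. In the main fit that spread is how far libraries depart from additive effects of GSK126 and BMP2 within a day, pooled over both days. It may be technical or hold a joint effect of the agents, which cannot be told apart here. RNA was the only readout: protein levels and histone methylation were not measured.

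In the complex, EZH2 or EZH1 carries the catalytic SET domain and is active only when bound to EED and SUZ12. EED reads the trimethylated mark and stimulates the enzyme, SUZ12 is the scaffold, and RBBP4 and RBBP7 are closely related WD40-repeat histone-binding proteins that also belong to the NuRD and Sin3 deacetylase complexes, while RBBP4 also belongs to the CAF-1 histone chaperone. The accessory subunits fall into separate forms of the complex: JARID2, a Jumonji-family protein without demethylase activity, and AEBP2, a zinc finger protein, form one, and the Polycomb-like proteins MTF2 and PHF19, which bring PRC2 to CpG-rich DNA, belong to the other. EZH2 is known as the form of dividing cells, with a gene regulated by E2F factors, and EZH1 as the form found also in cells that have stopped dividing. In the osteoblast lineage PRC2 is known to restrain differentiation genes.

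Promoter sequence was examined because several members changed together with replication genes between the days. For all 10 genes RefSeq start sites in GRCm38.p6 were available, 14 in all. The window from 250 bases before to 50 bases after each start was searched on both strands for the E2F words TTTCCCGC, TTTCGCGC, TTTGCCGC and TTTGGCGC and for the 7-letter core TTCCCGC, which lies inside the first of these words. A match is a description of the letters and not a shown binding site. Ezh2, Suz12 and Phf19 held an exact match, and the other 7 members held none of these words in the window. Looser matches were not counted. For example, the Rbbp4 window holds gttggcgcgaa shortly before the start, which is close to TTTGGCGC but not equal to it. A match was held by 5.72% of all 32851 RefSeq windows, by the windows of 6.54% of all genes, of 11 of the 17 replication genes found there (64.71%) and of 1 of the 14 mitosis genes found there. The Ezh2 match, TTTGGCGC, begins at base 4 after the start. The Suz12 match, TTTCCCGC, begins at base -219, and the Phf19 match, GCGGGAAA, which is the same word read on the other strand, begins at base -208. The promoters are printed 5′ to 3′ on the strand of the gene, with the matched word in capitals: these 3, and that of Ezh1, the catalytic paralogue that moved the other way, which has no match. Ezh2 is shown from 250 bases before to 15 bases after its start (chr6:47595016-47595280, minus strand), and the others for the 250 bases before it: Suz12 (chr11:79992856-79993105, plus strand), Phf19 (chr2:34913977-34914226, minus strand) and Ezh1 (chr11:101226464-101226713, minus strand).
Ezh2: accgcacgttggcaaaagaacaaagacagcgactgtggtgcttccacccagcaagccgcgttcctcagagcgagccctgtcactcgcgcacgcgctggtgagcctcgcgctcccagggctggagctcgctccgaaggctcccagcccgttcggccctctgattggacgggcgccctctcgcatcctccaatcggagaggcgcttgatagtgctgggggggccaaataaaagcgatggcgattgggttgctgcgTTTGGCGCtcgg
Suz12: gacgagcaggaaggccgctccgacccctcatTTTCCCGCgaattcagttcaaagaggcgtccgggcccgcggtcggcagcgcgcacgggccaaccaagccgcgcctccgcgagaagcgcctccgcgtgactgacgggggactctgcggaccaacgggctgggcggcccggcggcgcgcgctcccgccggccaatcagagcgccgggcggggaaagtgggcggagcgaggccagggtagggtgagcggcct
Phf19: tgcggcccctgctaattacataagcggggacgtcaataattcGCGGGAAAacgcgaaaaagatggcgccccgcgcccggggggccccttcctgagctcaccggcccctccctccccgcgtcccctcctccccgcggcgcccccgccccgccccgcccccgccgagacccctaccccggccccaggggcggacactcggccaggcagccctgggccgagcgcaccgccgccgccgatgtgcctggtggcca
Ezh1: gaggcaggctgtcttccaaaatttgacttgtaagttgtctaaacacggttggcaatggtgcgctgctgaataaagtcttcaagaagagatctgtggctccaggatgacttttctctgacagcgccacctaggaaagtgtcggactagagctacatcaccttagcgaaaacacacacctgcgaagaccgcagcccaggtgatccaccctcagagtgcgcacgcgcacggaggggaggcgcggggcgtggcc

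Libraries held 74301112 to 113744802 counts. Every count above 0 was even, as it would be if both mates of each read pair were counted. The counting is not described, so read pairs here are counts divided by 2, and the 95% Poisson intervals given with some values rest on that reading and hold counting error alone. The 7 osteoblast lineage markers were present, with Col1a1 between 18484 and 75085 CPM. Of 13 markers of macrophages and leukocytes, endothelium, adipocytes and skeletal muscle, 9 did not exceed 0.219 CPM in any library, among them the defining Ptprc, Pecam1, Adipoq and Myod1. The others reached 1.66 CPM (Csf1r), 1.59 (Acta1), 0.869 (Cd68) and 0.690 (Fabp4). Csf1r rose with BMP2 on day 6 (1.03 ± 0.25, adjusted p = 0.022) and fell by 0.41 ± 0.15 with day, and Acta1 fell by 1.91 ± 0.15 with day and by 1.34 ± 0.31 between 10 and 50 ng/ml BMP2 on day 6. Their part in the results was not tested. The share of counts from Rn45s, a ribosomal RNA precursor, was 8.96% to 11.7% in day 1 libraries and 13.1% to 21.7% in day 6 libraries. On day 6 it also differed by treatment. For 0, 10 and 50 ng/ml BMP2 it was 15.4%, 17.2% and 21.7% without GSK126 and 14.5%, 13.5% and 13.1% with it. Its part in the day, GSK126 and BMP2 results was not tested. Below, CPM values are scaled by the trimmed mean of M-values (TMM), log2 fold changes are given ± their standard error (SE) from a fit over all 12 libraries, and each adjusted p is that of the quasi-likelihood test in edgeR, adjusted by Benjamini-Hochberg over the 12056 genes.

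Per unit of length, the RBBP genes were the most abundant members and Phf19 the least. On day 1 the deposited RPKM (reads scaled by gene length and by library total) had a median over the 6 libraries of 102 for Rbbp7, 38.6 for Rbbp4, 25.1 for Ezh2, 23.2 for Suz12, 20.5 for Aebp2 and 12.0 for Eed. Ezh1 (4.18) and Mtf2 (4.12) came next, with overlapping ranges, followed by Jarid2 (1.59) and Phf19 (0.681). No other neighbours in this order overlapped on day 1. On day 6 the order was Rbbp7 (51.6), Rbbp4 (23.5), Suz12 (14.2), Aebp2 (12.1), Ezh2 (9.85), Eed (9.49), Ezh1 (5.93), Mtf2 (2.54), Jarid2 (2.13) and Phf19 (0.164). On that day the ranges of Suz12 and Aebp2, of Aebp2 and Ezh2, of Ezh2 and Eed, and of Mtf2 and Jarid2 overlapped. In deposited RPKM, Ezh2 thus stood above Suz12 and Aebp2 on day 1 and below both in median on day 6. The whole order rests on the gene lengths deposited with the counts, here 2667 bases for Ezh2, 4373 for Suz12 and 6616 for Aebp2. Their merged exons in the GENCODE M21 annotation hold 6678, 4945 and 9851 bases, and other lengths could change the order. In CPM, without length, the day 1 median of Ezh2 (77.1) was already below those of Suz12 (116) and Aebp2 (156).

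**Figure D1:**
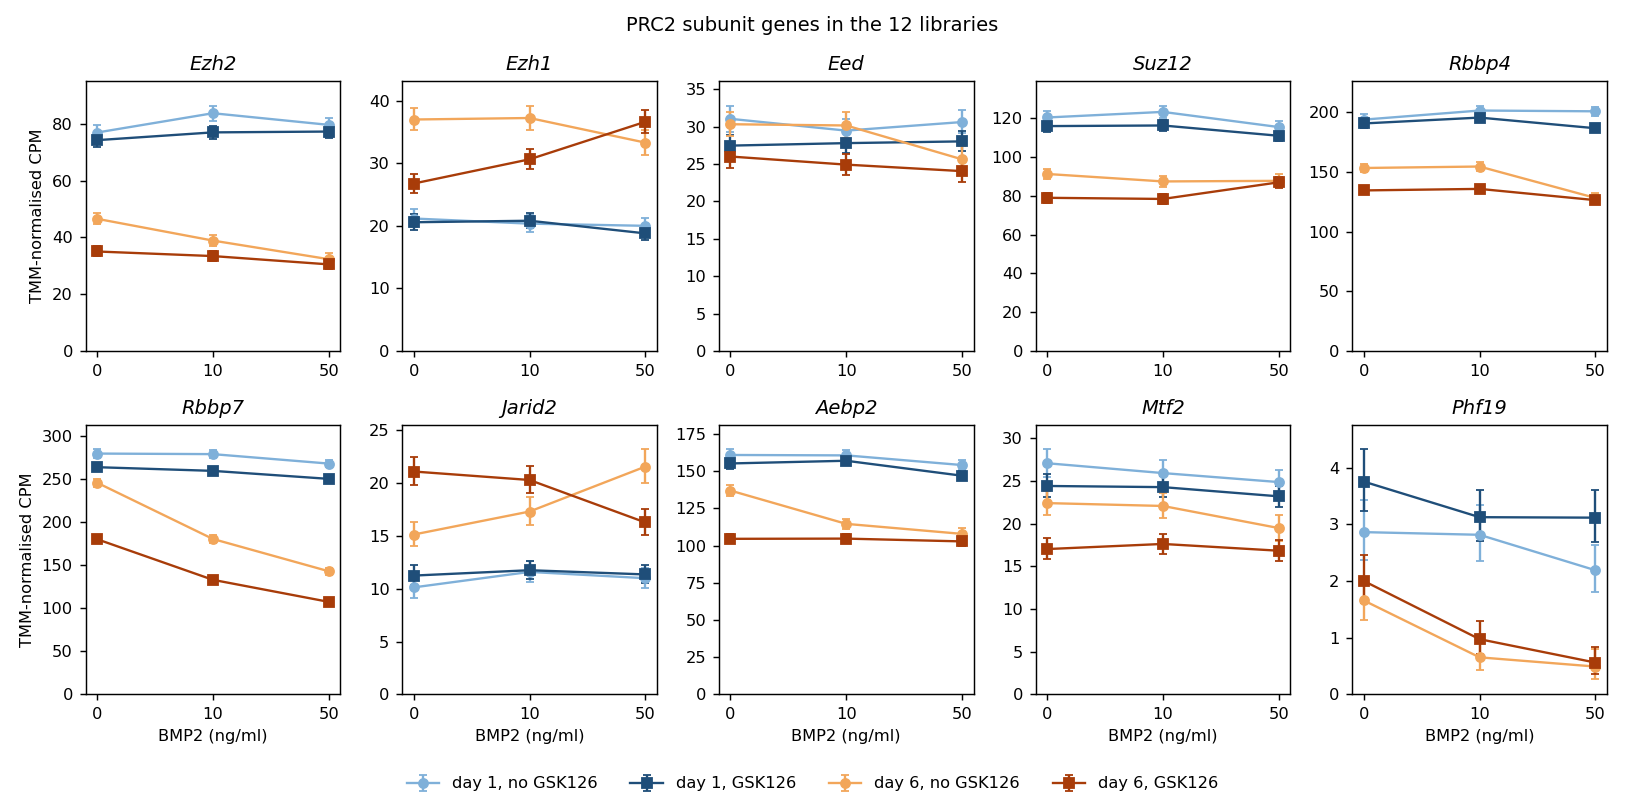
TMM-normalised CPM of the 10 genes (vertical axes, each from 0) against BMP2 dose in ng/ml, with 1 point per library and bars for the 95% Poisson interval on read pairs. Ezh2, Suz12, Rbbp4, Rbbp7, Aebp2, Mtf2 and Phf19 lie lower on day 6 (orange and red) than on day 1 (blue) in every library, Ezh1 and Jarid2 lie higher, and the days overlap for Eed.

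The comparison of day 6 with day 1 asked what changed with time in osteogenic culture, as a mean over the 6 treatments. All 10 members passed the test, 8 lower and 2 higher on day 6, beside 78% of all genes tested (37.5% lower and 40.5% higher). The median log2 fold change of the members was -0.47, against 0.03 over all genes tested. The ranges of the 6 libraries of each day did not overlap for 9 of the 10 members, beside 45.7% of all genes. In these bulk libraries fewer cells with a transcript and less of it per cell cannot be told apart.

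The catalytic subunits moved in opposite directions. Ezh2 stood at 76.9, 83.7 and 79.6 CPM on day 1 for 0, 10 and 50 ng/ml BMP2 and at 74.2, 77.0 and 77.2 with GSK126, and on day 6 at 46.5, 38.9 and 32.3 without and 35.0, 33.4 and 30.5 with GSK126. Every day 6 library was thus below every day 1 library, and Ezh2 fell by 1.12 ± 0.05 on the log2 scale (adjusted p = 1e-06). For matched treatments the drop ranged from a log2 fold change of -0.72 in vehicle to -1.34 with GSK126 and 50 ng/ml BMP2. Ezh1 stood at 21.2, 20.4 and 20.0 CPM on day 1 without GSK126 and 20.6, 20.8 and 18.8 with it, and on day 6 at 37.0, 37.3 and 33.3 without and 26.8, 30.7 and 36.7 with it. All day 6 libraries were above all day 1 libraries, and Ezh1 rose by 0.72 ± 0.08 (adjusted p = 9.3e-05), higher in 6 of 6 matched treatments. The Ezh2 promoter holds an E2F word just after its start, and the Ezh1 window holds none. The windows of Eed, Rbbp4, Rbbp7, Aebp2 and Mtf2, which fell with day, and of Jarid2, which rose, hold no exact match either. The Rbbp4 window holds a looser one, as given above. The part of these words in the changes was not tested.

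Within a library, the ratio of Ezh2 to Ezh1 in RPKM does not depend on library size or scaling. It was 5.71, 6.46 and 6.25 on day 1 without GSK126 and 5.67, 5.81 and 6.46 with it, for 0, 10 and 50 ng/ml BMP2. On day 6 it was 1.98, 1.64 and 1.52 without GSK126 and 2.06, 1.71 and 1.31 with it. The days did not overlap, and on day 6 the ratio was lower at each higher BMP2 dose with and without GSK126. The ratio stayed above 1 in all 12 libraries, but its level rests on the deposited lengths, 2667 bases for Ezh2 and 4194 for Ezh1. Their merged GENCODE M21 exons hold 6678 and 7440 bases. In CPM, Ezh1 was above Ezh2 in the day 6 libraries with 50 ng/ml BMP2, at 33.3 against 32.3 without GSK126 and 36.7 against 30.5 with it.

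**Figure D2:**
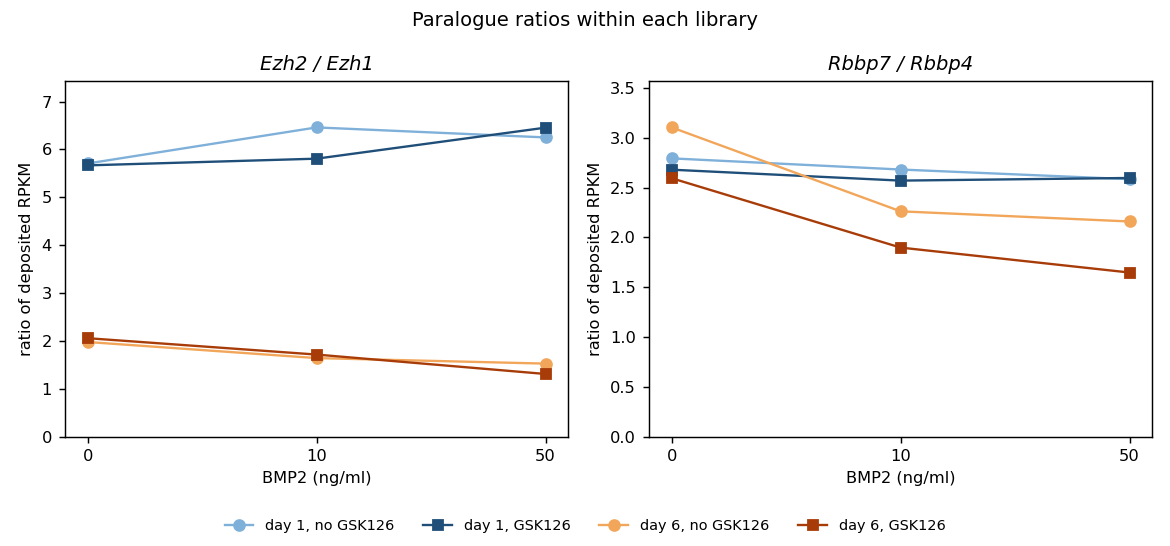
Ratio of deposited RPKM between paralogues within each library, Ezh2 to Ezh1 (left) and Rbbp7 to Rbbp4 (right), against BMP2 dose in ng/ml, with 1 point per library and both vertical axes from 0. The Ezh2 to Ezh1 ratio lies between 5.67 and 6.46 on day 1 and between 1.31 and 2.06 on day 6, and the Rbbp7 to Rbbp4 ratio between 2.57 and 2.79 on day 1 and between 1.65 and 3.11 on day 6.

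Among the core subunits other than the methyltransferases, the mean change over the 6 treatments was largest for the histone-binding paralogues, but not in vehicle alone. Rbbp7 stood at 279, 279 and 268 CPM on day 1 without GSK126 and 263, 259 and 249.9 with it, and on day 6 at 245, 180.3 and 143 without and 180.0, 133 and 107 with it. Its day 6 libraries were all below those of day 1 and spread over more than a 2-fold range, and Rbbp7 fell by 0.74 ± 0.03 on the log2 scale (adjusted p = 5.9e-07). Its log2 difference in vehicle was -0.19, against -0.34 for Rbbp4 and -0.40 for Suz12, and with GSK126 and 50 ng/ml BMP2 it was -1.22. Rbbp4 lay between 187 and 201 CPM on day 1 and between 126 and 155 on day 6, and fell by 0.49 ± 0.03 (adjusted p = 1.3e-05). Suz12 lay between 111 and 123 CPM on day 1 and between 78.4 and 91.2 on day 6, and fell by 0.46 ± 0.03 (adjusted p = 1.7e-05). For both the days did not overlap and the change was lower in 6 of 6 matched treatments. Eed changed least: it lay between 27.5 and 31.1 CPM on day 1 and between 24.1 and 30.3 on day 6, with overlapping days. It fell by 0.12 ± 0.04 (adjusted p = 0.021), lower in 5 of 6 matched treatments. This call was lost when any of 5 of the 12 libraries was left out in turn (adjusted p = 0.00568 to 0.0809) and when matched treatment was fitted as a block (adjusted p = 0.075), an alternative added after seeing the data.

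The ratio of Rbbp7 to Rbbp4 in RPKM lay between 2.57 and 2.79 in the 6 day 1 libraries. On day 6 it was 3.11, 2.26 and 2.16 for 0, 10 and 50 ng/ml BMP2 without GSK126 and 2.59, 1.90 and 1.65 with it. The day 6 vehicle library was the highest of all 12 and the library with GSK126 and 50 ng/ml BMP2 the lowest, and the day 6 range took in the whole day 1 range.

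The accessory subunits did not share a direction. Phf19 stood at 2.86, 2.82 and 2.19 CPM on day 1 without GSK126 and 3.76, 3.13 and 3.12 with it, and on day 6 at 1.66, 0.655 and 0.492 without and 2.00, 0.976 and 0.563 with it. These values rest on 110 to 193 read pairs per library on day 1 and 16 to 90 on day 6, and the lowest has a 95% Poisson interval of 0.281 to 0.800 CPM. All day 6 libraries were below those of day 1, and Phf19 fell by 1.68 ± 0.10 (adjusted p = 6.5e-06) as a mean over the 6 treatments. Without BMP2 the log2 difference was -0.79 in vehicle and -0.91 with GSK126, and with BMP2 it lay between -1.68 and -2.47. Jarid2 stood at 10.1, 11.6 and 11.0 CPM on day 1 without GSK126 and 11.2, 11.7 and 11.3 with it, and on day 6 at 15.1, 17.3 and 21.5 without and 21.1, 20.3 and 16.2 with it. All day 6 libraries were above those of day 1, and Jarid2 rose by 0.73 ± 0.11 (adjusted p = 0.00052). AEBP2, its partner in the same form of the complex, went the other way at the RNA level: Aebp2 lay between 147 and 161 CPM on day 1 and between 103 and 137 on day 6, and fell by 0.48 ± 0.05 (adjusted p = 5.7e-05). Mtf2 lay between 23.2 and 27.1 CPM on day 1 and between 16.8 and 22.4 on day 6, and fell by 0.38 ± 0.04 (adjusted p = 5.9e-05). Neither gene overlapped between the days.

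**Figure D3:**
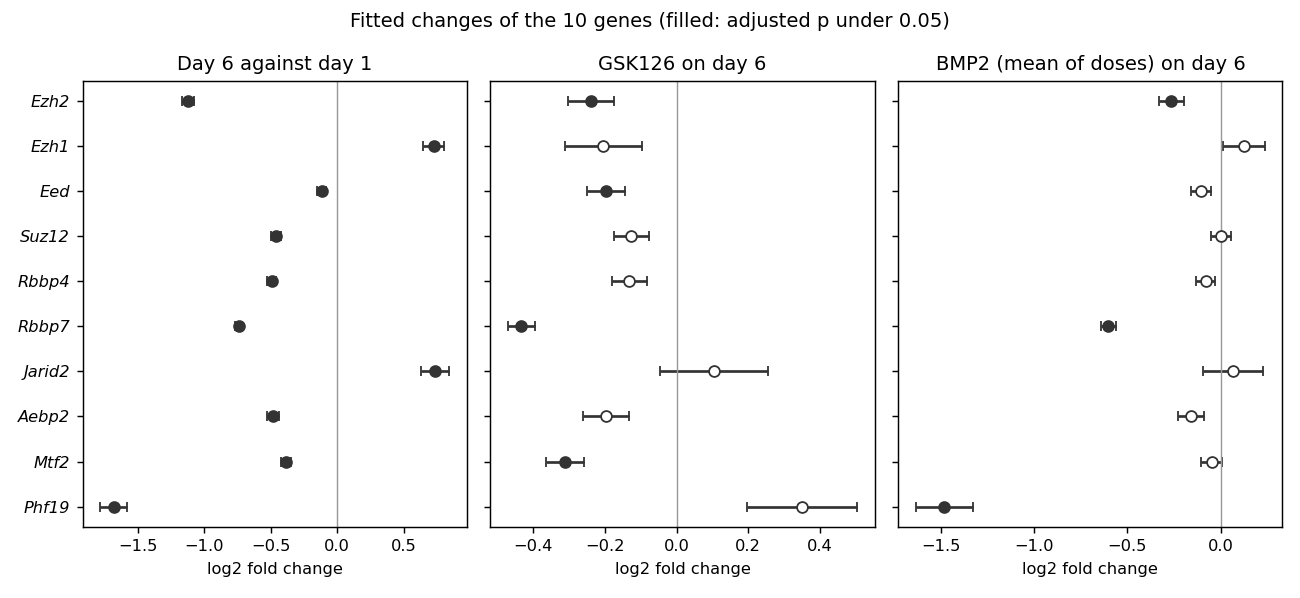
Fitted log2 fold changes of the 10 genes (horizontal axes, each panel with its own scale) for day 6 against day 1, GSK126 on day 6 and BMP2 on day 6, with bars for ± 1 SE and filled points where the adjusted p was under 0.05. All 10 points are filled for day, 4 for GSK126 and 3 for BMP2, and Rbbp7 and Ezh2 are filled in all panels.

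The GSK126 comparison on day 6 asked how the transcripts of the complex differed when its enzyme was inhibited, over the 3 BMP2 doses. Rbbp7, Mtf2, Ezh2 and Eed passed the test, all lower with GSK126, which is 4 of 10 members beside 28.3% of all genes tested (14% lower). The median change of the members was -0.20, against -0.0017 over all genes. Rbbp7 was lower at each dose, at 180.0 against 245 CPM without BMP2, 133 against 180.3 at 10 ng/ml and 107 against 143 at 50 ng/ml, and fell by 0.43 ± 0.04 (adjusted p = 0.00045). The groups with and without GSK126 still overlapped for Rbbp7, and in both the level was lower at each higher BMP2 dose. Mtf2 was at 22.4, 22.1 and 19.5 CPM without and 17.0, 17.6 and 16.8 with GSK126. These groups did not overlap, and Mtf2 fell by 0.31 ± 0.05 (adjusted p = 0.0059). Ezh2, whose protein is the target of GSK126, fell by 0.24 ± 0.06 (adjusted p = 0.032), with a gap of 46.5 against 35.0 CPM without BMP2 that narrowed to 32.3 against 30.5 at 50 ng/ml. Eed was at 30.3, 30.2 and 25.6 CPM without and 26.0, 24.9 and 24.1 with GSK126, and fell by 0.20 ± 0.05 (adjusted p = 0.032). Each of these 4 genes was lower in 3 of 3 doses.

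The calls of Ezh2 and Eed were not stable. Both were lost when any library other than the pair with 50 ng/ml BMP2 on day 6 was left out (adjusted p = 0.00754 to 0.106 for Ezh2 and 0.0106 to 0.153 for Eed over all 12 omissions). Without either library of that pair 9 members passed, 8 lower and 1, Jarid2, higher, beside 35.3% and 35.2% of all genes. The library of that pair without GSK126 had the highest Rn45s share (21.7%) and the lowest TMM factor (0.813) of the 12. Their part in these counts was not tested. In a fit on the 6 day 6 libraries alone only Rbbp7 passed, beside 8.1% of all genes.

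The other members did not pass the test for GSK126 on day 6. Aebp2 differed by -0.20 ± 0.06 (adjusted p = 0.061), Rbbp4 by -0.13 ± 0.05 (adjusted p = 0.088) and Suz12 by -0.13 ± 0.05 (adjusted p = 0.095), each lower in 3 of 3 doses. Aebp2 was at 137, 115 and 108 CPM without GSK126 and 104, 105 and 103 with it, and Suz12 at 91.2, 87.4 and 87.7 without and 79.0, 78.4 and 86.9 with it. For Aebp2, Suz12 and Mtf2 the groups did not overlap, which is 3 of 10 members beside 20.8% of all genes. Ezh1 differed by -0.20 ± 0.11 (adjusted p = 0.19), lower in 2 of 3 doses. Phf19 lay in the other direction at 0.35 ± 0.15 (adjusted p = 0.13), higher in 3 of 3 doses. Jarid2 differed by 0.10 ± 0.15 (adjusted p = 0.64), higher in 2 of 3 doses.

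On day 1 no member and no gene passed the test for GSK126 (0% of genes tested), while 3 members and 755 genes had an unadjusted p under 0.05. DESeq2 and limma-voom called 0 members as well, beside 6 genes in DESeq2 and 0 in limma-voom. The 3 members were Phf19, Eed and Rbbp7. Phf19 had the same fitted value as on day 6, 0.35 ± 0.13 (adjusted p = 0.79), and was higher in 3 of 3 doses. Eed differed by -0.13 ± 0.05, Rbbp7 by -0.10 ± 0.04 and Ezh2 by -0.07 ± 0.06. A fit on the 6 day 1 libraries alone called Ezh2 (-0.08), Eed (-0.13) and Rbbp7 (-0.10), beside 17.5% of all genes. The difference between the days was tested directly. The GSK126 effect on Rbbp7 was lower on day 6 than on day 1 by a log2 difference of -0.34 ± 0.05 (adjusted p = 0.011), and Rbbp7 was the only one of the 10 members to pass, beside 10.5% of genes (6.52% lower). That call was lost when any of the 6 day 1 libraries was left out (adjusted p = 0.0044 to 0.0852 over all 12 omissions).

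The BMP2 comparison on day 6, the mean of both doses against none, called Phf19, Rbbp7 and Ezh2, all lower, which is 3 of 10 members beside 28.7% of all genes (15.5% lower). The median change of the members was -0.09, against -0.0017 over all genes. Phf19 stood at 1.66 CPM in vehicle and at 0.655 and 0.492 with 10 and 50 ng/ml BMP2, and with GSK126 at 2.00, 0.976 and 0.563. The 4 libraries with BMP2 were all below the 2 without it, and Phf19 fell by 1.48 ± 0.15 (adjusted p = 0.00085). Rbbp7 fell by 0.60 ± 0.04 (adjusted p = 0.00017), lower in 4 of 4 matched comparisons. Ezh2 fell by 0.27 ± 0.07 (adjusted p = 0.026), also lower in 4 of 4. Leaving out 1 library ended the Ezh2 call in 9 of 12 cases (adjusted p = 0.00394 to 0.173), and it was also lost in the fit on day 6 alone (adjusted p = 0.144).

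Between the BMP2 doses on day 6, Rbbp7 alone among the members passed, lower by -0.32 ± 0.05 at 50 than at 10 ng/ml (adjusted p = 0.0084), beside 11.8% of all genes (6.47% lower). The Rbbp7 values of 180.3 and 143 CPM without GSK126 and of 133 and 107 with it show the same order. The call was lost without the day 6 library with 10 ng/ml BMP2 (adjusted p = 0.0776) and in the fit on day 6 alone (adjusted p = 0.188).

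The remaining members did not pass for BMP2 on day 6. Aebp2 differed by -0.16 ± 0.07 (adjusted p = 0.13), Eed by -0.11 ± 0.06 (adjusted p = 0.20), Ezh1 by 0.13 ± 0.11 (adjusted p = 0.45), Jarid2 by 0.07 ± 0.16 (adjusted p = 0.79) and Suz12 by 0.00 ± 0.05 (adjusted p = 0.98). Rbbp4 and Mtf2 also did not pass. Suz12, the scaffold, lay nearest to 0 of these, and the SEs of Ezh1 and Jarid2 were more than 2 times that of Suz12. With scaling by library size the median of all genes moved to -0.15 in this comparison, Eed (adjusted p = 0.0464) and Aebp2 (adjusted p = 0.0401) passed as well, and the fitted values of Ezh1, Jarid2 and Suz12 changed sign.

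On day 1, BMP2 called none of the 10 members, beside 3.66% of all genes, and no member had an unadjusted p under 0.05. DESeq2 and limma-voom also called 0 members, beside 7.56% and 4.69% of all genes. Ezh2 differed by 0.07 ± 0.07, higher in 4 of 4 matched comparisons, and a fit on the day 1 libraries alone called it at 0.07 (adjusted p = 0.0313), beside 40.6% of all genes. The BMP2 effect differed between the days for Rbbp7, by -0.56 ± 0.06 (adjusted p = 0.0029), and for Phf19, by -1.25 ± 0.21 (adjusted p = 0.015), which is 2 of 10 members beside 9.14% of all genes (5.33% lower). For Ezh2 the difference was -0.34 ± 0.10 and did not pass (adjusted p = 0.077). The Phf19 call was lost in 6 of 12 omissions of 1 library (adjusted p = 0.0148 to 0.134) and the Rbbp7 call in 2, those of the day 1 vehicle and day 1 GSK126 libraries (adjusted p up to 0.0617).

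The study asks how BMP2 and GSK126 act together, so the interaction on day 6 was fitted, as the GSK126 effect with any BMP2 minus that without. No member and no gene passed (0% of genes tested), no member had an unadjusted p under 0.05, and 1125 genes did. DESeq2 and limma-voom called 0 members, beside 190 genes (1.58%) in DESeq2 and 0 in limma-voom, and leaving out the day 6 library with 10 ng/ml BMP2 gave 156 genes and 0 members. The fitted value furthest from 0 among the members was that of Jarid2, at -0.57 ± 0.25 (adjusted p = 0.54). Without GSK126 its level was higher at each BMP2 dose (15.1, 17.3 and 21.5 CPM), and with GSK126 it was lower at each dose (21.1, 20.3 and 16.2 CPM). Ezh1 had 0.40 ± 0.19 (adjusted p = 0.57): with GSK126 it stood at 26.8, 30.7 and 36.7 CPM, and without at 37.0, 37.3 and 33.3. Aebp2 had 0.29 ± 0.12 (adjusted p = 0.54), with vehicle at 137 CPM above all 5 other day 6 libraries. These patterns rest on 1 library per point.

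Genes of the same and neighbouring pathways were counted for the lists used with the members. Over all genes tested, 78% passed for day (37.5% lower and 40.5% higher), and these shares stand beside the day counts of each list. Among other PRC2-associated genes, Phf1, Lcor and Lcorl were tested. Lcorl, which encodes a nuclear protein that binds PRC2, rose with day (0.26 ± 0.05), none passed for GSK126 or BMP2 on day 6, and Epop and Ezhip were below the filter. Both H3K27 demethylases rose with day, Kdm6b by 0.73 ± 0.04 and Kdm6a by 0.29 ± 0.04, and neither passed for GSK126 or BMP2 on day 6. Of 23 subunit genes of PRC1, the complex that ubiquitinates histone H2A, 13 fell and 4 rose with day, with Pcgf5 (-1.44 ± 0.04) and Cbx2 (-1.03 ± 0.05) among the lower. For GSK126 on day 6, 4 of them rose and 3 fell, beside 28.3% of all genes called. For BMP2 3 rose and 3 fell, beside 28.7% of all genes called. Phc2 was higher in both (0.43 ± 0.05 and 0.66 ± 0.05) and Cbx6 lower in both (-0.46 ± 0.11 and -0.88 ± 0.11). Of 19 other SET-domain methyltransferases 11 fell and 3 rose with day, led by Suv39h2 (-1.32 ± 0.07), which makes the heterochromatin mark on lysine 9 of histone H3. Of 6 genes of the H2A deubiquitinase 3 fell and 2 rose with day.

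RBBP4 and RBBP7 belong to other complexes too, whose genes did not all fall with them. Of 16 NuRD and Sin3 genes, 9 fell and 5 rose with day, beside 37.5% lower and 40.5% higher over all genes. The remodeller gene Chd3 fell by 1.82 ± 0.07, and Mbd2, which encodes a reader of methylated DNA, rose by 0.58 ± 0.06. For GSK126 on day 6, 3 of the 16 passed, beside 28.3% of all genes (14% lower). They were all lower: Chd3 (-0.58 ± 0.09), Hdac1 (-0.33 ± 0.05) and Hdac2 (-0.20 ± 0.05). For BMP2 on day 6, 2 rose and 2 fell, among them Hdac1 (-0.28 ± 0.05), beside 28.7% of all genes (15.5% lower). All 5 genes of CAF-1 and replication-coupled histone deposition fell with day and with GSK126 on day 6, with Chaf1b at -2.21 ± 0.06 and -0.55 ± 0.08, and 1 of them, Asf1b, fell with BMP2.

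Cell division genes moved with the same comparisons as Ezh2 and Rbbp7. Of 24 E2F-regulated replication genes all 24 fell with day (median -1.94), 19 with GSK126 on day 6 (median -0.56) and 12 with BMP2 on day 6 (median -0.25), and none rose in these 3 comparisons. Over all genes, 37.5% were lower with day, 14% with GSK126 and 15.5% with BMP2. All 16 mitosis genes fell in each of the 3 (medians -1.82, -1.13 and -0.78), and Aurkb, which encodes a mitotic kinase, had a day change of -2.17 ± 0.04. Of 13 E2F and Rb family genes 9 fell and 2 rose with day, 6 fell with GSK126 and, with BMP2, 5 fell and 1, Rb1, rose. The median level of the replication list, as log2 CPM centred over the 12 libraries, lay between 0.92 and 0.98 on day 1 and between -1.39 and -0.49 on day 6, and that of the mitosis list between 0.87 and 0.94 and between -2.03 and 0.14. The part of cell division in the changes of the members was not tested.

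**Figure D4:**
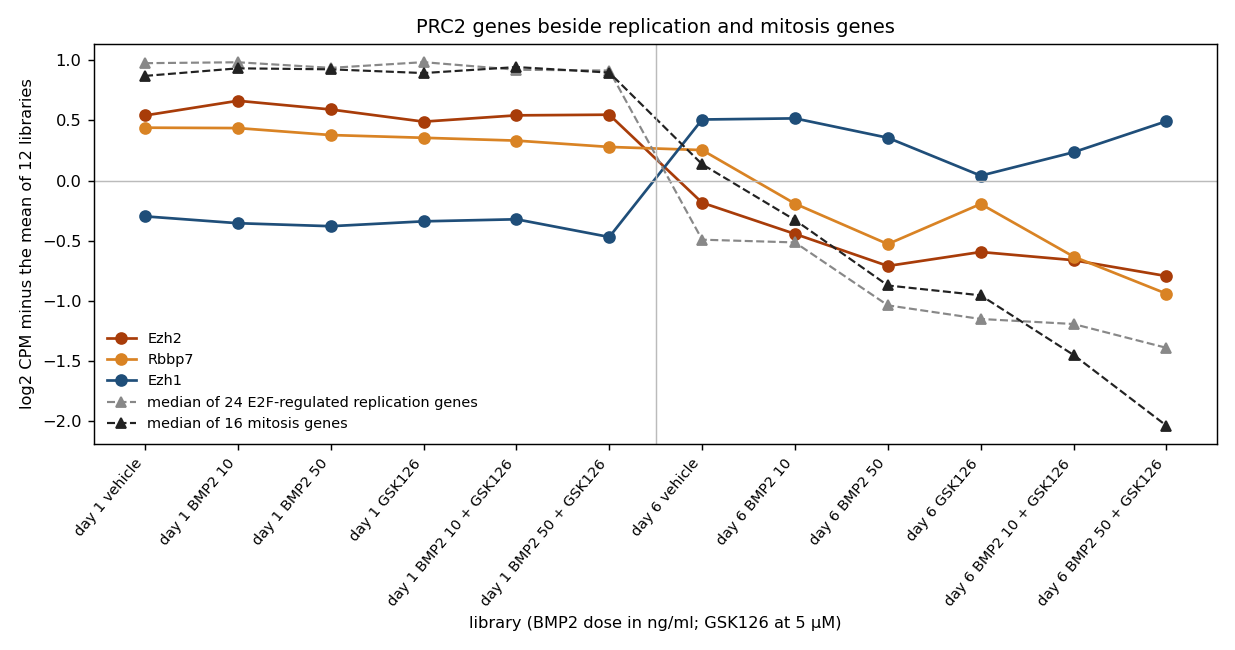
Log2 CPM minus the mean of the 12 libraries (vertical axis) for Ezh2, Rbbp7, Ezh1 and the medians of 24 replication genes and 16 mitosis genes, in each library (horizontal axis, BMP2 dose in ng/ml, GSK126 at 5 µM). Ezh2, Rbbp7 and both medians are nearly level on day 1 and lower in every day 6 library, though in day 6 vehicle Rbbp7 (0.25) and the mitosis median (0.14) are still above 0. All 4 are lowest with GSK126 and 50 ng/ml BMP2 on day 6, and Ezh1 is higher in every day 6 library.

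The genes whose profile over the 12 libraries was most like that of Ezh2 were sought by the root mean square difference of centred log2 CPM. The search took in 9380 genes whose mean reached 5 CPM. Genes with Gm, Rik, accession or pseudogene names, and symbols that occur more than once, were left out of it. The nearest genes were Tmem48 (0.050), a nuclear pore gene, Cenpt (0.069), a centromere gene, Usp1 (0.077), a deubiquitinase gene of DNA repair, Mfhas1 (0.078) and Tipin (0.082), a gene of the replication fork. The median gene lay at 0.61. Among the members Rbbp7 was nearest to Ezh2 (0.24, rank 386), followed by Rbbp4 (0.33, rank 922). Ezh1 lay at 0.94 from Ezh2, beyond the median gene. Nearest to Ezh1 were Zfyve1, Tsga14, Tbc1d12, Kdm3a and Cir1, at 0.099 to 0.105 with the median gene at 0.44, and among the members Jarid2 (0.26, rank 1117). These distances are descriptions over 12 libraries that share a cell line, with no test.

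Some member values could hold reads of other genes, because the strand setting of the counting is not given in the sources used here. In the GENCODE M21 annotation of the same build, exons of Rbbp4 share 782 bases with Sync on the opposite strand, those of Rbbp7 share 174 bases with Txlng, and those of Mtf2 share 395 with Tmed5. Genes that do not code for protein also share exon bases on the opposite strand. They are Gm26722 with Rbbp4 (796 bases), E230029C05Rik with Eed (261), Gm26563 with Suz12 (178) and Gm26625 with Ezh2 (174). Of these only E230029C05Rik has counts here, at no more than 0.0398 CPM. Txlng lay at 8.78 to 10.6 CPM on day 1 and 10.6 to 13.1 on day 6. Sync lay at 1.55 to 16.1 CPM and Tmed5 at 19.1 to 36.5, the latter close in level to Mtf2. With day, Tmed5 fell by 0.55 ± 0.04, the direction of Mtf2, while Sync rose by 1.35 ± 0.08 and Txlng by 0.29 ± 0.06. The part of shared reads in the member values was not tested. Of all 50-base words in the transcripts of a member, 17.2% for Rbbp4 and 11.2% for Rbbp7 also occur in transcripts of other genes, 5.82% for Eed and 5.56% for Mtf2, and none of them is shared between members, so Ezh1 with Ezh2 and Rbbp4 with Rbbp7 are told apart at this word length. For Jarid2 and Phf19 no such word occurs elsewhere.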

How the data were processed

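The authors deposited 1 table with a gene count and an RPKM value (scaled for gene length and library total) for each of the 12 libraries. The build mm10 and the tools TopHat2 2.0.6, HTSeq and bcl2fastq are named per the submitters' processing notes. How reads were counted, by strand or not, and on which annotation is not given in the sources used here. Total counts per library ran from 74301112 to 113744802. All 195176 deposited counts above 0 were even. Counts were tested as deposited, and Poisson intervals were taken on counts divided by 2, which assumes that both mates of a pair were counted. Deposited RPKM values served only to compare genes within libraries, since the totals they imply are larger than the gene sums.

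The 12056 genes that reached 1 CPM in 2 or more libraries were normalised by TMM and fitted in edgeR 4.0.16 (R 4.3.3) with quasi-likelihood tests and Benjamini-Hochberg adjustment at 0.05. The fit held day and, within each day, GSK126 and each BMP2 dose (8 coefficients, 4 residual degrees of freedom). Libraries with a treatment in common thus serve in place of replicates, with 1 estimate of the spread for both days. Calls on day 6 therefore rest in part on the spread of the day 1 libraries. Fits per day called 17.5% (GSK126) and 40.6% (BMP2) of genes on day 1, against 0% and 3.66% in the main fit. For day 6 they called 8.1% and 8.79%, against 28.3% and 28.7%. The interaction was fitted with day by GSK126 by any BMP2, with both doses of a group in place of replicates. SEs are the fold change divided by the root of the F statistic. The scripts were tested on simulated data with 1 spread per gene for both days and no joint effect of the agents. The recovered shares hold for that setting alone. Of planted log2 changes of 0.5, 49.3% were recovered for GSK126 on day 6, 49.3% for BMP2 on day 6 and 76.1% for day. Of planted changes of 1, 95.5%, 94% and 94% were recovered. Changes smaller than 0.5, the size of most member values that did not pass, were not simulated, and neither was the interaction.

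Alternatives were DESeq2 1.42.0, limma-voom (limma 3.58.1), library size scaling, other filters, halved counts, fits per day, omission of each library and, added after seeing the data, matched treatment as a block for day. All 10 members were tested in each comparison of the main fit. Every member is named for day and for GSK126 and BMP2 on day 6. In the other comparisons the called members are named, with some that did not pass. From each of 10 other lists (130 genes, 127 found above the filter) up to 3 called genes of largest change were named. The profile neighbours are the 5 nearest genes whose mean reached 5 CPM, without Gm, Rik, accession, pseudogene or repeated symbols. The members and lists were chosen with earlier results of these data known. Markers of macrophages, endothelium, adipocytes and skeletal muscle were checked besides osteoblast markers. Promoters are from RefSeq (GRCm38.p6), and 50-base words were counted in GENCODE M21 transcripts.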

Additional observations from a re-analysis of the deposited data

Results flagged for a closer look

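Rbbp7 and Phf19 responded differently on the days. The GSK126 effect on Rbbp7, day 6 minus day 1, was -0.337 on the log2 scale, and its BMP2 effect differed by -0.561. The BMP2 effect on Phf19 differed by -1.25. In each case the difference itself passed the adjusted test, and the effect lay further below 0 on day 6. Rbbp7 had the replication and mitosis lists moving with it on day 6, and Phf19 rests on 16 to 49 read pairs in the day 6 libraries with BMP2. The part of either in the differences was not tested.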

How the results depend on the processing

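No call printed for a member changed direction under any alternative run; over the called results 335 alternative values kept their call and 58 lost it. No pairing by replicate number exists, since each condition has 1 library, but libraries can be matched by treatment. GSK126 is already compared within BMP2 dose and day, and a fit of day with matched treatment as a block, added after seeing the data, called 9 members (68.1% of genes), with Eed lost. Scaling by library size gave 2 members for GSK126 on day 6 (25.1% of genes; Ezh2 and Eed lost, adjusted p = 0.149 and 0.172), 5 for BMP2 on day 6 (35%) and 3 for 50 against 10 ng/ml (20.4%). The fits per day gave 3 members for GSK126 on day 1 (17.5%), 1 for BMP2 on day 1 (40.6%), 1 for GSK126 on day 6 (8.1%) and 0 for 50 against 10 ng/ml (0.0508%), and they hold 6 libraries each. The filter of 5 CPM, which leaves out Phf19, gave 1 member for the BMP2 effect between days (10.1%). Omitting each library in turn gave 9 to 10 members for day (71.3% to 80.2% of genes), 2 to 9 for GSK126 on day 6 (15.2% to 35.3%), 0 to 3 for its difference between days (2.84% to 21.8%), 2 to 6 for BMP2 on day 6 (19.4% to 40.3%), 0 to 4 for its difference between days (0.864% to 20.9%) and 0 to 4 for 50 against 10 ng/ml (2.14% to 25.2%). The GSK126 count was 9 (8 lower and 1 higher) without either day 6 library with 50 ng/ml BMP2 and 2, both lower, without any other library. The BMP2 count was 6 without the day 6 library with GSK126 and 50 ng/ml BMP2, 4 without the day 6 GSK126 library or the day 6 library with 50 ng/ml BMP2, and 2 without any other library. Without either day 6 library with 50 ng/ml BMP2, 1 member in the BMP2 count was higher. The interaction could not be fitted without the day 6 vehicle or the day 6 GSK126 library.

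Among the values printed in the report that did not pass, these changed sign. For BMP2 on day 6, library size scaling gave -0.020 for Ezh1, -0.14 for Suz12 and -0.078 for Jarid2, and omissions gave -0.068 to 0.33 for Ezh1, -0.060 to 0.067 for Suz12 and -0.20 to 0.36 for Jarid2. For GSK126 on day 6 omissions gave -0.084 to 0.36 for Jarid2, which passed, higher, in 2 of 12. Phf19 has the fewest reads, 16 to 90 pairs per day 6 library, which limits the precision of its values.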
